A study of Mus musculus with 8 samples.

Results

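The genes described here are 38 endothelial, lymphatic, adhesion and angiogenic genes, measured by bulk RNA sequencing of mouse ileum after irinotecan, a topoisomerase I inhibitor. They are the rows of the deposited table whose gene symbol is on a fixed list, and all 38 were found among its 55487 rows. The study compared Gsdme+/+ mice (WT) with Gsdme-/- mice (here Gsdme_KO), 4 of each, and both groups had received irinotecan. Gsdme encodes gasdermin E, which forms membrane pores once a caspase has cut it, and the stated purpose was to compare the ileal transcriptome of the genotypes. Not given in the sources used here are strain, age, sex, dose and time after treatment. No untreated mice were analysed here, so every value describes a treated ileum.

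Endothelial cells line blood and lymphatic vessels. Vascular endothelial growth factors act through the receptor kinases Kdr and Flt1 on blood vessels and Flt4 on lymphatic vessels, and the angiopoietins act through Tek, which is assisted by the related receptor Tie1. In the intestinal villus a fenestrated capillary net takes up absorbed nutrients and a central lymphatic, the lacteal, takes up dietary fat. Inflamed venules display selectins, Icam1 and Vcam1, to which leukocytes attach, and in Peyer's patches high endothelial venules let lymphocytes enter from blood.

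The promoters of adhesion members are shown first because these genes spanned the widest ranges among libraries, and that of Flt1 stands beside them as an example of a receptor gene. Each line holds the 250 bases before the RefSeq start of the gene (GRCm38.p6), read 5′ to 3′ on the gene's strand. Capitals mark matches on either strand to the letters AGGAAG, a core bound by ETS factors such as Erg, or GGNNNTTCC, a core of NF-kB sites. The windows are chr9:21015690-21015939 (plus strand) for Icam1, chr1:164047984-164048233 (plus strand) for Sele, chr1:164115014-164115263 (plus strand) for Selp and chr5:147726012-147726261 (minus strand) for Flt1.
Icam1: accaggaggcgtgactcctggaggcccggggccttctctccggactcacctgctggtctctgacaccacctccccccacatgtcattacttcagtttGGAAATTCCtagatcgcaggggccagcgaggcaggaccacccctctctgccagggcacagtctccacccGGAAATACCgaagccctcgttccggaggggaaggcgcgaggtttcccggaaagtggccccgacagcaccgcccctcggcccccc
Sele: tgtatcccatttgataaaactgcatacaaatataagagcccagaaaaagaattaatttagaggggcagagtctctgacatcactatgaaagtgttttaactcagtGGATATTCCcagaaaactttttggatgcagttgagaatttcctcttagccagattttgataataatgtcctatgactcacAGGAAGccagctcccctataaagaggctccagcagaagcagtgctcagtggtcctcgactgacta
Selp: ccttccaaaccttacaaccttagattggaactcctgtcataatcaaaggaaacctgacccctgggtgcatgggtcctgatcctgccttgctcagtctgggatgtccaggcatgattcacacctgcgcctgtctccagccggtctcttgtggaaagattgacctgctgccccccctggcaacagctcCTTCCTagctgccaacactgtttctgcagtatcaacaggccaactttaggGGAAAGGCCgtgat
Flt1: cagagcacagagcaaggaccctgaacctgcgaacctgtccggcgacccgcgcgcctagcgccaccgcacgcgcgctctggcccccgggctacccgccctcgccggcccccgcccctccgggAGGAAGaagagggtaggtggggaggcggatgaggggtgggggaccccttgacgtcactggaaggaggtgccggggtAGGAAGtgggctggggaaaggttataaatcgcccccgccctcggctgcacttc
The Icam1 window held 2 matches to GGNNNTTCC, starting 153 and 84 bases before the gene start, and no AGGAAG. In the Sele and Selp windows there was 1 match to each motif. The Flt1 window held 2 matches to AGGAAG and none to GGNNNTTCC. It held the most AGGAAG matches of the receptor windows, since Tie1 had 1 and Kdr, Flt4 and Tek had 0. In the windows of Ackr1, Egfl7 and Eng the motifs overlapped. RefSeq entries were found for 23 members, and 12 of these had AGGAAG and 7 had GGNNNTTCC in at least 1 window, against 29.5% and 15.7% of the 32851 windows of this length over all genes. Members can have several windows, so these shares are a description. The core of the hypoxia response element, ACGTG, was found in windows of 2 members, Pdpn and Vegfa (16.6% of all windows), and AACAAT, a core bound by SOX factors, in windows of Emcn, Erg, Mmrn1 and Tek (9.42%).

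Values are normalized counts, the authors' read counts per gene divided by 1 size factor per library. The column headers name the 4 WT libraries WT3, WT5, WT7 and WT8, and the 4 Gsdme_KO libraries KO4, KO5, KO7 and KO8. They held 15617407 to 23437343 reads in genes. The targeted gene Gsdme had 2169 to 3376 normalized counts in WT and 113 (KO4), 187 (KO5), 634 (KO7) and 464 (KO8) in Gsdme_KO, below every WT library (log2 difference of means -3.32, exact permutation p = 0.0286, two-sided, the smallest of 70 assignments). A pair of Gsdme_KO libraries, KO4 and KO5, differed from the rest. Their summed normalized counts of 10 B cell and follicle markers were 10806 (KO4) and 6134 (KO5), where the remaining 6 libraries had 261 to 395. Each count of members below is therefore also given without KO4 and KO5.

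No endothelial member passed the test between genotypes, which was limma-trend on log2(normalized count + 1) over 16352 genes with a mean of at least 10, at a Benjamini-Hochberg adjusted p under 0.05. Of the 38 members 37 reached that mean, and Sele did not. The count of members called was 0 higher (0.00612% of all tested genes were) and 0 lower (0.0%), with limma adjusted p of 0.849 to 0.991. On recovered reads edgeR also called 0 members (0.00612% of all genes higher, 0.0% lower), as did DESeq2 (0.0532% higher, 0.00666% lower). Unadjusted limma p was under 0.05 for 6 members, all higher in Gsdme_KO (2.61% of tested genes), and for none that was lower (1.77%). That split of all genes, 427 higher and 290 lower, became 346 higher and 403 lower with quantile normalization, under which 4 members were higher and 0 lower. These 6 were Tmem88, Sox17, Icam2, Flt4, Cdh5 and Pecam1. The same 6 were under 0.05 with edgeR, joined by Vcam1 (4.43% of all genes were higher and 1.58% lower), and with DESeq2, joined by Vcam1 and Icam1 (5.12% higher, 1.82% lower). Without KO4 and KO5, an alternative added after seeing the data, limma called 0 members (0.0% of genes higher, 0.00617% lower). Tmem88 and Sox17 remained under an unadjusted p of 0.05, and no member was lower (1.03% of genes higher, 1.71% lower).

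Most members had a higher mean in Gsdme_KO, by small amounts. The log2 fold change was positive for 33 of 37 tested members, against 50.6% of all tested genes, with a median of 0.25 for the members and 0.00 for all genes. Leaving out KO4 lowered the members' median to 0.15, and leaving out KO4 and KO5 lowered it to 0.09, with 28 of 37 positive (52.0% of genes). Genotypes did not overlap in 2 members, Tmem88 and Sox17, both higher in Gsdme_KO (1.31% of tested genes), and in no member that was lower (1.19%). Leaving out libraries cannot make separated genotypes overlap, so Tmem88 and Sox17 necessarily stayed without overlap when KO4 and KO5 were left out. No further higher member joined these 2 (5.43% of the genes tested there were higher without overlap). Emcn then became the 1 lower member without overlap (5.92%). In bulk tissue, a larger number of endothelial cells and more RNA per cell cannot be told apart.

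**Figure D1:**
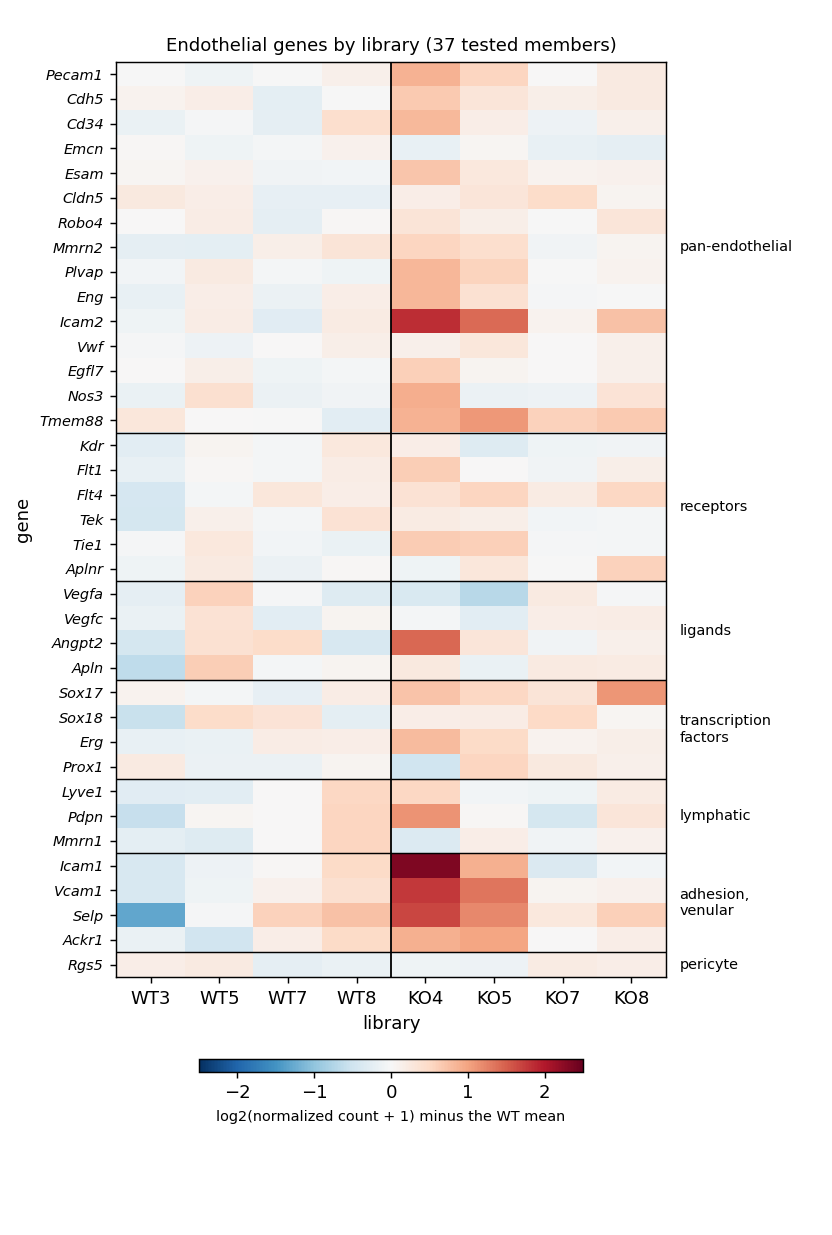
Log2(normalized count + 1) of each tested member (rows, grouped by role) in each library (columns), minus the mean of the 4 WT libraries; red is above and blue below that mean. KO4 and KO5 hold the deepest red, for Icam1, Vcam1, Selp and Icam2, while Tmem88 and Sox17 are red in all 4 Gsdme_KO libraries.

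The excess over WT was largest in KO4 and KO5. In KO4, 23 of the 37 tested members exceeded all 4 WT libraries, where 30.5% of all tested genes did, and 4 lay below them, where 30.4% did. In KO5, 20 members exceeded every WT library (24.3% of all genes) and 3 lay below (23.0%). KO7 had 5 members above (18.3% of all genes) and 1 below (17.2%), and KO8 had 8 above (14.2%) and 1 below (14.5%). WT libraries also differed among themselves, and 18 of 37 members in WT8 exceeded the other 3 WT libraries (30.9% of all genes).

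**Figure D2:**
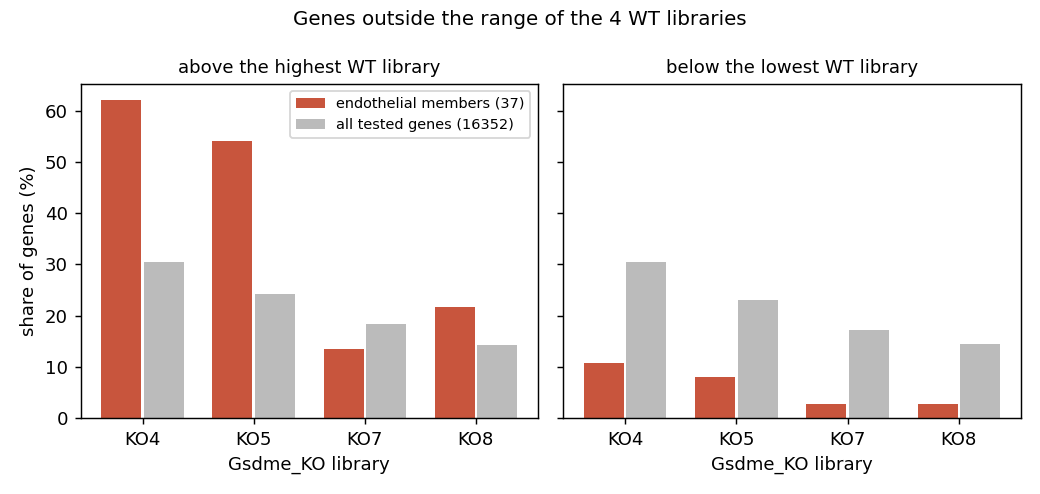
Share of genes (vertical axis, %) above the highest or below the lowest of the 4 WT libraries in each Gsdme_KO library, for the 37 tested members and for all 16352 tested genes. The members' shares above the WT range are 62.2% (KO4), 54.1% (KO5), 13.5% (KO7) and 21.6% (KO8).

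Tmem88 separated the genotypes most clearly among the members. It encodes a small transmembrane protein that binds Dishevelled and restrains Wnt signalling, and lies on chromosome 11 (69396519 to 69398234, minus strand, GRCm38). Tmem88 had 47.7 (WT3), 39.3 (WT5), 38.7 (WT7) and 32.3 (WT8) normalized counts, and 71.9 (KO4), 84.1 (KO5), 58.5 (KO7) and 62.1 (KO8). Every Gsdme_KO library was above every WT library, and KO5 rather than KO4 was the highest. The means were 39.5 ± 6.31 and 69.1 ± 11.5 (SD, n = 4). The difference was 0.79 on the log2 scale (SE 0.195, 95% interval 0.35 to 1.24, limma unadjusted p = 0.00304, adjusted p = 0.849). It lay between 0.69 and 0.88 when any 1 library was left out, and was 0.61 without KO4 and KO5. Naa38 overlaps Tmem88 on the other strand, and how the counting used strand is not given in these sources, so part of these reads may belong to Naa38.

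Sox17, a transcription factor of arterial and embryonic endothelium (chromosome 1, 4490931 to 4497354, minus strand), was the other member without overlap. It had 34.0 (WT3), 31.0 (WT5), 27.7 (WT7) and 36.4 (WT8) normalized counts, and 53.5 (KO4), 46.6 (KO5), 40.2 (KO7) and 70.3 (KO8). KO8 was highest, and the gap between KO7 and WT8 was narrow. On the log2 scale Sox17 differed by 0.67 (SE 0.22, 95% interval 0.17 to 1.17, limma unadjusted p = 0.0147, adjusted p = 0.849), and 0.71 without KO4 and KO5. The other SOX member, Sox18, which takes part in lymphatic specification, had 68.1 (WT3), 139 (WT5), 127 (WT7) and 85.3 (WT8) normalized counts, and 112 (KO4), 114 (KO5), 143 (KO7) and 105 (KO8). Its genotypes overlapped widely (log2 fold change 0.22, SE 0.241). The list mean of the 4 transcription factors, in log2(normalized count + 1) minus the WT mean, was 0.30 (KO4), 0.43 (KO5), 0.29 (KO7) and 0.36 (KO8), above the highest WT library (0.04) in all 4. Erg, an ETS factor that maintains endothelial identity, had 56.7 to 73.0 in WT and 112 (KO4), 89.4 (KO5), 68.2 (KO7) and 71.2 (KO8), above the WT range in KO4 and KO5 only. Prox1, the master regulator of lymphatic fate that is also made by some epithelial cells, had 111 (WT3), 85.7 (WT5), 85.2 (WT7) and 100.2 (WT8) normalized counts, and 67.3 (KO4), 139 (KO5), 113 (KO7) and 103 (KO8). KO4 was the lowest and KO5 the highest of the 8 libraries.

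**Figure D3:**
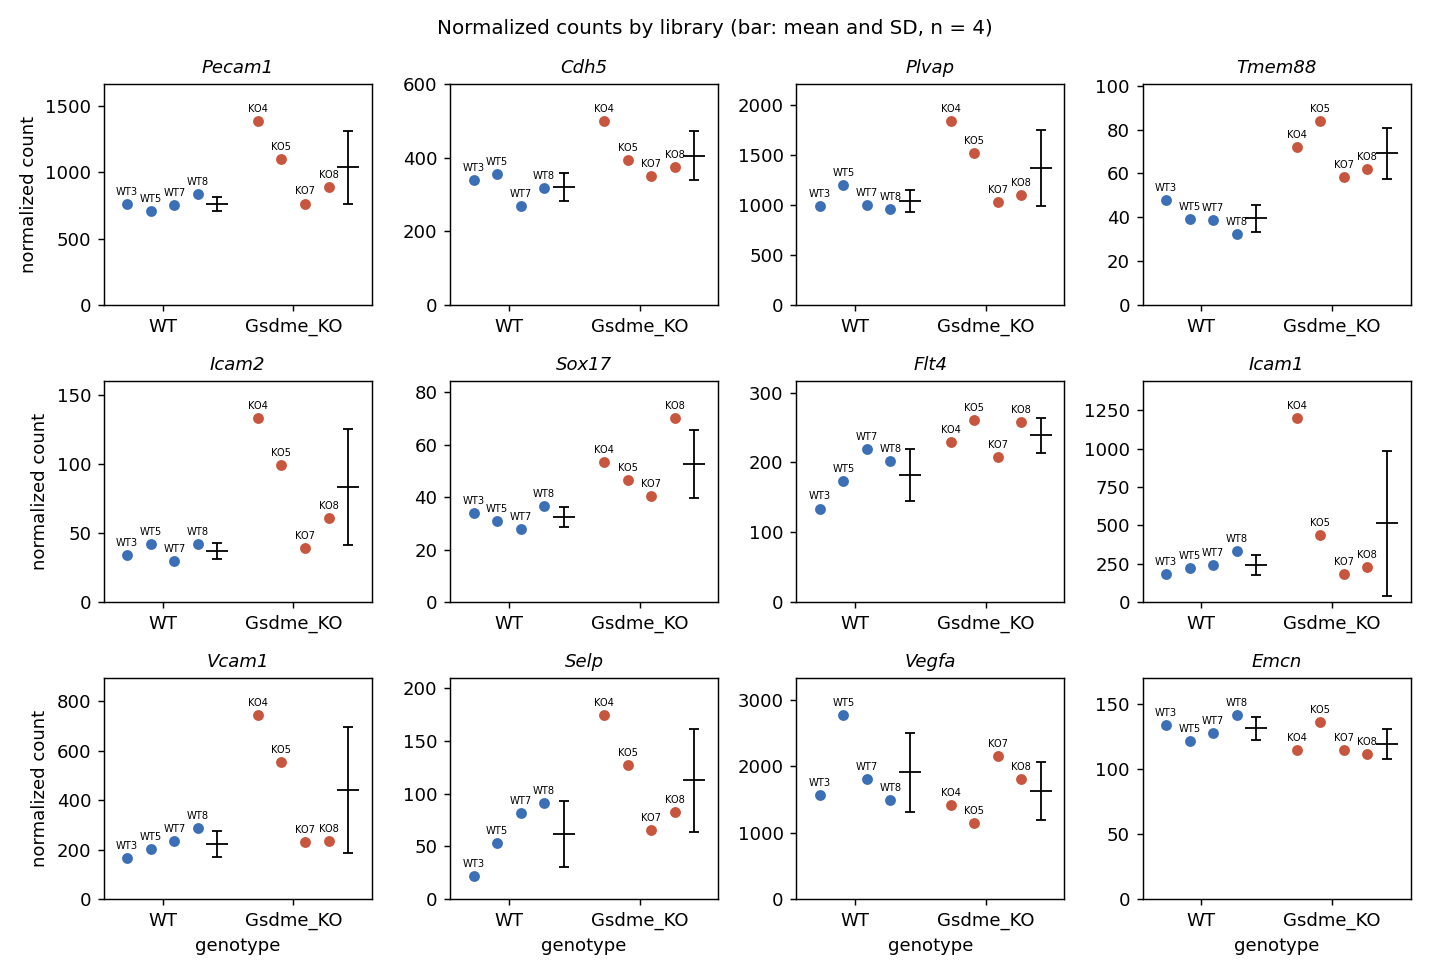
Normalized counts (vertical axis, from 0) of 12 members in each library, with the mean and SD of each genotype (n = 4) as a bar. Tmem88 and Sox17 do not overlap between genotypes, whereas Icam1, Vcam1 and Plvap are high in KO4 and KO5 and lie within or beside the WT range in KO7 and KO8.

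The pan-endothelial junction and surface genes were the largest group, with 15 members and a median log2 fold change of 0.25, which became 0.15 without KO4 and 0.09 without KO4 and KO5. Pecam1, an adhesion molecule of endothelial junctions that platelets and leukocytes also carry (chromosome 11, 106654217 to 106750628, minus strand), had 760 (WT3), 705 (WT5), 756 (WT7) and 834 (WT8) normalized counts. In Gsdme_KO it had 1391 (KO4), 1100 (KO5), 765 (KO7) and 893 (KO8). KO7 lay inside the WT range and the other 3 above it. The log2 fold change was 0.41 (SE 0.172, limma unadjusted p = 0.0428, adjusted p = 0.849), and 0.12 without KO4 and KO5.

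Cdh5, the VE-cadherin that holds endothelial cells together (chromosome 8, 104101625 to 104144511, plus strand), differed less. It had 338 (WT3), 356 (WT5), 268 (WT7) and 317 (WT8) normalized counts, and 501 (KO4), 393 (KO5), 351 (KO7) and 374 (KO8). Of the Gsdme_KO libraries KO7 alone fell below the highest WT library, WT5. Cdh5 differed by 0.33 on the log2 scale (SE 0.14, limma unadjusted p = 0.0415, adjusted p = 0.849), and 0.19 without KO4 and KO5. Plvap, which forms the diaphragms of fenestrated capillaries, had the highest level per length of the endothelial members, at 608 normalized counts per kb of merged exons over the 8 libraries. Its values were 991 (WT3), 1205 (WT5), 1000 (WT7) and 963 (WT8), against 1847 (KO4), 1521 (KO5), 1027 (KO7) and 1106 (KO8). KO4 and KO5 were above every WT library, and KO7 and KO8 were within the WT range (log2 fold change 0.37, SE 0.185, and 0.04 without KO4 and KO5).

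Icam2, a constitutive endothelial ligand of leukocyte integrins that lymphocytes and platelets also express (chromosome 11, 106377656 to 106388075, minus strand), differed most within this group. It had 34.0 (WT3), 41.7 (WT5), 29.9 (WT7) and 42.2 (WT8) normalized counts, and 134 (KO4), 99.1 (KO5), 39.0 (KO7) and 61.2 (KO8). KO7 lay among the WT libraries. For Icam2 the log2 fold change was 1.02 (SE 0.362, 95% interval 0.19 to 1.84, limma unadjusted p = 0.0211, adjusted p = 0.849), and 0.41 without KO4 and KO5.

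The remaining pan-endothelial members overlapped between genotypes. Eng, a co-receptor for TGF-beta family ligands, had 454 to 584 normalized counts in WT and 923 (KO4), 671 (KO5), 510 (KO7) and 513 (KO8). Esam, a junctional adhesion protein, had 244 to 282 in WT and 421 (KO4), 315 (KO5), 277 (KO7) and 279 (KO8). Both were above the WT range in KO4 and KO5 alone. Cd34, a sialomucin of capillaries and of fibroblast-like cells, was above the WT range in KO4 only, at 941 against 458 to 713, and the secreted angiogenic factor gene Egfl7 likewise, at 376 against 231 to 275. Nos3, the endothelial nitric oxide synthase, had 157 in KO4 and 74.3 to 105 in the other Gsdme_KO libraries, with 73.8 to 110 in WT. Mmrn2, a matrix protein around vessels, had 129 to 191 in WT and 222 (KO4), 206 (KO5), 144 (KO7) and 161 (KO8).

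Some pan-endothelial genes showed little or no excess in KO4. Emcn, a sialomucin of capillaries and veins, had 121 to 142 normalized counts in WT and 114 (KO4), 136 (KO5), 115 (KO7) and 111 (KO8). KO5 alone kept the genotypes from separating (log2 fold change -0.14, SE 0.125, limma unadjusted p = 0.292). Vwf, which encodes von Willebrand factor, had 468 to 565 in WT and 513 to 626 in Gsdme_KO. Cldn5, the tight junction claudin of endothelium, had 79.7 to 109 in WT and 96.7 to 127 in Gsdme_KO, and Robo4, which stabilises vessels, had 101 to 135 and 117 to 147. Of these, only Robo4 was above the WT range in KO4 (146.6), and it was also above that range in KO8 (146.0). For these genes the log2 fold changes were 0.14 (Vwf, 95% interval -0.08 to 0.35), 0.25 (Cldn5, -0.13 to 0.62) and 0.19 (Robo4, -0.13 to 0.51).

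Among the receptors, Flt4, the VEGF-C receptor of lymphatic and fenestrated endothelium (chromosome 11, 49609263 to 49652739, plus strand), had an unadjusted limma p under 0.05. It had 134 (WT3), 173 (WT5), 219 (WT7) and 202 (WT8) normalized counts, and 229 (KO4), 261 (KO5), 207 (KO7) and 257 (KO8). Only KO7 fell below the highest WT library. The log2 fold change was 0.41 (SE 0.169, limma unadjusted p = 0.0401, adjusted p = 0.849), and it was 0.37 without KO4 and KO5.

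The other receptors did not follow Flt4. Kdr, the main VEGF-A receptor, had 312 (WT3), 394 (WT5), 362 (WT7) and 452 (WT8) normalized counts, and 423 (KO4), 300 (KO5), 348 (KO7) and 355 (KO8). The ranges nearly coincided (log2 fold change -0.09, 95% interval -0.42 to 0.24). Flt1, a VEGF-A receptor that also acts as a decoy, had 288 (WT3), 336 (WT5), 316 (WT7) and 374 (WT8), against 500 (KO4), 327 (KO5), 308 (KO7) and 361 (KO8). KO4 alone was above the WT range. Tie1 had 273 to 368 in WT and 476 (KO4), 461 (KO5), 300 (KO7) and 295 (KO8), so that KO4 and KO5 were high together. Tek had 140 to 244 in WT and 180 to 218 in Gsdme_KO (log2 fold change 0.06, 95% interval -0.35 to 0.46). Aplnr, the apelin receptor, had 131 to 168 in WT and 133 (KO4), 175 (KO5), 144 (KO7) and 215 (KO8). KO4 and KO7 were inside the WT range.

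The ligand genes showed no shared direction. Vegfa, the principal angiogenic growth factor, which epithelium and other cells secrete, had 1574 (WT3), 2778 (WT5), 1806 (WT7) and 1487 (WT8) normalized counts. In Gsdme_KO it had 1416 (KO4), 1145 (KO5), 2152 (KO7) and 1804 (KO8). KO4 and KO5 were the lowest of the 8 libraries, opposite to most members, and KO7 was the second highest (log2 fold change -0.22, SE 0.243, and 0.09 without KO4 and KO5). Angpt2, a Tek ligand released by activated endothelium, had 27.2 (WT3), 48.8 (WT5), 52.0 (WT7) and 28.1 (WT8), against 103 (KO4), 46.6 (KO5), 35.3 (KO7) and 41.1 (KO8). Only KO4 left the WT range. Vegfc, the lymphatic growth factor, had 88.5 (WT3), 127 (WT5), 83.0 (WT7) and 105 (WT8), against 96.8 (KO4), 82.6 (KO5), 112 (KO7) and 114 (KO8). Its genotypes did not differ beyond the spread (log2 fold change 0.01, 95% interval -0.40 to 0.43), and Apln, the apelin gene, had 47.7 to 116 in WT and 66.8 to 88.5 in Gsdme_KO.

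Lymphatic members varied as much within genotypes as between them. Lyve1, a hyaluronan receptor of lymphatic capillaries and some macrophages, had 293 (WT3), 298 (WT5), 361 (WT7) and 512 (WT8) normalized counts, and 510 (KO4), 341 (KO5), 329 (KO7) and 409 (KO8). WT8 and KO4 were the high libraries. Pdpn, a mucin-like protein of lymphatic endothelium and of fibroblastic stroma, had 205 (WT3), 314 (WT5), 306 (WT7) and 442 (WT8), against 665 (KO4), 314 (KO5), 227 (KO7) and 378 (KO8). KO4 was above WT8, and KO7 was near WT3. Mmrn1, a multimerin stored in platelets and lymphatic endothelium, was highest in WT8 (457) and lowest in KO4 (249). The log2 fold changes were 0.13 (Lyve1, SE 0.209), 0.26 (Pdpn, SE 0.336) and -0.04 (Mmrn1, SE 0.202). Of the 12 other lymphatic endothelial genes examined, 9 were tested and 0 had an unadjusted limma p under 0.05 in either direction, with a median log2 fold change of 0.26. Ccl21a, the lymphatic chemokine that guides dendritic cells, had 0 reads in every library, and it has near-identical gene copies that reads can be shared with.

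The inducible adhesion genes spanned the widest ranges, and their median log2 fold change over 4 tested genes, 0.76, was 0.44 without KO4 and 0.08 without KO4 and KO5. Icam1, a ligand of leukocyte beta2 integrins (chromosome 9, 21015985 to 21028817, plus strand), had 180 (WT3), 219 (WT5), 243 (WT7) and 332 (WT8) normalized counts, and 1203 (KO4), 439 (KO5), 184 (KO7) and 225 (KO8). KO7 and KO8 lay inside the WT range, KO5 was above it and KO4 far above it. The log2 fold change was 0.69 (SE 0.532, 95% interval -0.52 to 1.90, limma unadjusted p = 0.226), 0.15 without KO4 and -0.22 without KO4 and KO5.

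Vcam1, a ligand of alpha4 integrins that lymphoid stroma also carries (chromosome 3, 116109949 to 116129688, minus strand), had 167 (WT3), 202 (WT5), 236 (WT7) and 289 (WT8) normalized counts. In Gsdme_KO it had 747 (KO4), 554 (KO5), 229 (KO7) and 236 (KO8). KO4 and KO5 were both above every WT library and KO7 and KO8 were inside the WT range. Vcam1 had a log2 fold change of 0.82 (SE 0.391, limma unadjusted p = 0.0668, adjusted p = 0.849), and of 0.09 without KO4 and KO5.

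The selectin genes Selp and Sele lie near each other on the plus strand of chromosome 1 (164115264 to 164150026 and 164048234 to 164057677). Selp, the P-selectin of endothelium and platelets, had 21.6 (WT3), 53.6 (WT5), 81.9 (WT7) and 91.0 (WT8) normalized counts, and 175 (KO4), 127 (KO5), 65.8 (KO7) and 83.1 (KO8). WT3 was far below all others, and the log2 fold change of 0.94 (SE 0.478) became 0.51 without WT3 and 0.44 without KO4 and KO5. Sele, the E-selectin of activated endothelium, was close to absent, with 1, 2, 2 and 5 reads in WT3, WT5, WT7 and WT8, against 7, 19, 1 and 0 reads in KO4, KO5, KO7 and KO8. A count of 0 in KO8 allows up to 2.74 normalized counts, and only KO4 and KO5 exceeded every WT library. Ackr1, a chemokine-binding receptor of venules, had 55.6 (WT3), 44.1 (WT5), 69.7 (WT7) and 86.9 (WT8) normalized counts, and 115 (KO4), 125 (KO5), 62.1 (KO7) and 69.4 (KO8). Again KO4 and KO5 were above WT and the others inside its range (log2 fold change 0.51, SE 0.298, and 0.08 without KO4 and KO5).

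Rgs5, a regulator of G-protein signalling known as a pericyte marker, was the most abundant member. It had 12035 (WT3), 12646 (WT5), 9273 (WT7) and 9583 (WT8) normalized counts, and 9984 (KO4), 9828 (KO5), 12487 (KO7) and 12165 (KO8). Each genotype had a lower and a higher pair of libraries, the higher being WT3, WT5, KO7 and KO8, and the genotypes did not differ beyond this spread (log2 fold change 0.04, 95% interval -0.29 to 0.36). Per kb of merged exons Rgs5 had 2420 normalized counts, against 178 for Abcc9 and 127 for Pdgfrb, a channel subunit and a growth factor receptor of pericytes, and 3.67 for the pericyte marker Higd1b, which had 1 to 6 reads a library. Of the 8 tested pericyte markers on a separate list, 0 had an unadjusted limma p under 0.05, with a median log2 fold change of 0.05, which was -0.02 without KO4 and -0.12 without KO4 and KO5.

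**Figure D4:**
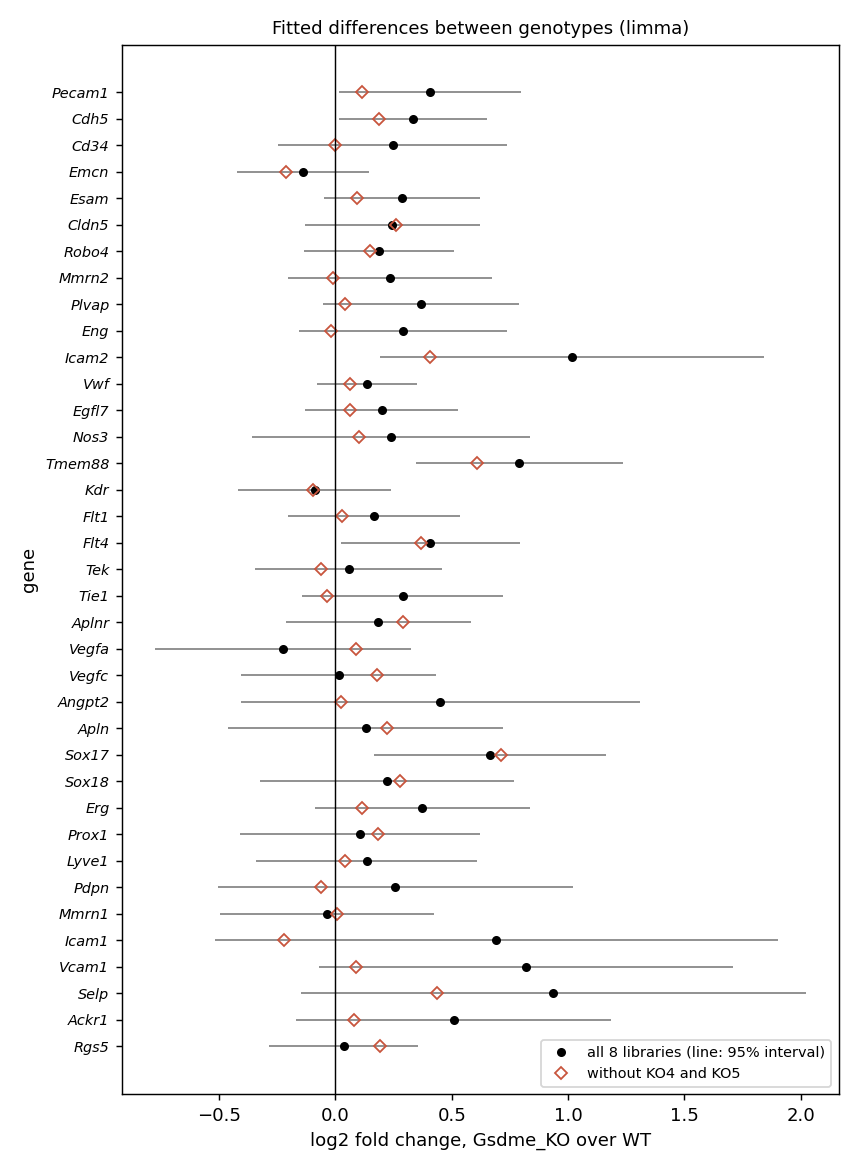
Log2 fold change of each tested member (horizontal axis, Gsdme_KO over WT) by limma with all 8 libraries (filled points, lines are 95% intervals) and without KO4 and KO5 (open diamonds). The diamonds for Icam1, Vcam1, Ackr1 and Plvap lie near or below 0, while those for Tmem88 (0.61), Sox17 (0.71) and Flt4 (0.37) stay close to the filled points.

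Each member was also set against Cdh5 in its own library. Cdh5 itself was above the WT range (268 to 356) in KO4 (501), KO5 (393) and KO8 (374), which lowers the ratios there. The ratio of Icam1 to Cdh5 normalized counts was 0.534 to 1.05 in WT, and 2.40 (KO4), 1.11 (KO5), 0.524 (KO7) and 0.602 (KO8). For Vcam1 it was 0.493 to 0.911 in WT, 1.49 (KO4) and 1.41 (KO5). The ratio for Icam2 was 0.267 and 0.252, against 0.101 to 0.133 in WT. These 3 genes were above their WT ratios in both libraries. For Plvap the ratio was 3.69 (KO4) and 3.86 (KO5), with 2.93 to 3.74 in WT, and for Esam it was 0.842 and 0.802, against 0.786 to 0.913. Pecam1 had 2.78 and 2.80, against 1.98 to 2.82. Ratios of these junction and capillary genes were inside or just above the WT range. Ratios below the WT range in KO4 included those of Kdr (0.845, WT 0.923 to 1.43), Emcn (0.228, WT 0.341 to 0.475) and Prox1 (0.134, WT 0.241 to 0.329). For Tmem88 the ratio was 0.144 (KO4), 0.214 (KO5), 0.167 (KO7) and 0.166 (KO8), against 0.102 to 0.145 in WT, and for Sox17 it was 0.107, 0.118, 0.115 and 0.188, against 0.0870 to 0.115. Relative to Cdh5, Tmem88 in KO4 and Sox17 in KO4 and KO7 were no longer above the highest WT library. For Tmem88 in KO4 and Sox17 in KO7 the ratio was close to that of the highest WT library.

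Other endothelial genes were taken from a separate list. Of 29 other pan-endothelial genes, all tested, 0 were called, 2 had an unadjusted limma p under 0.05 and were higher in Gsdme_KO (Ramp2 and Ets1), and 0 were lower. The list's median log2 fold change was 0.19, with 25 of 29 positive. It was 0.08 without KO4, 0.10 without WT3, and 0.03 without KO4 and KO5, with 16 of 29 positive and 0 at an unadjusted p under 0.05. Ramp2, a partner of the adrenomedullin receptor, had 163 to 209 normalized counts in WT and 243 (KO4), 267 (KO5), 225 (KO7) and 215 (KO8), with no overlap (log2 fold change 0.35, SE 0.121, limma unadjusted p = 0.0186). Ets1, which lymphocytes express strongly, had 339 to 537 in WT and 1672 (KO4), 1265 (KO5), 463 (KO7) and 462 (KO8). Ramp2 was above the WT range in every Gsdme_KO library, narrowly so in KO8, and Ets1 was above it in KO4 and KO5 only. Without KO4 and KO5 the log2 fold change of Ramp2 was 0.245 (limma unadjusted p = 0.138). For Ets1 the log2 fold change of 0.98 was 0.63 without KO4 and 0.15 without KO4 and KO5.

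The VEGF, angiopoietin and endothelial Notch list had 24 genes, all tested, of which 0 were called, 1 was higher and 2 were lower at an unadjusted limma p under 0.05, with a median log2 fold change of 0.11. The median was 0.03 without KO4 and KO5, 0.17 without WT8 and 0.20 without KO7, where 5 genes were higher at an unadjusted p under 0.05. The higher gene in all 8 libraries was Hif1a, the oxygen-regulated transcription factor subunit, with 1272 to 1971 normalized counts in WT and 6068 (KO4), 2917 (KO5), 1723 (KO7) and 2005 (KO8). Its log2 fold change of 0.88 (SE 0.359) was 0.51 without KO4 and 0.29 without KO4 and KO5. The lower genes were Dll4, the Notch ligand of endothelial tip cells that intestinal epithelium also makes, and Nrarp, a Notch target. Dll4 had 318 to 447 normalized counts in WT and 360 (KO4), 226 (KO5), 303 (KO7) and 280 (KO8) (log2 fold change -0.38, SE 0.161, limma unadjusted p = 0.0417). Nrarp had 550 to 663 in WT and 295 (KO4), 434 (KO5), 462 (KO7) and 539 (KO8), with no overlap (log2 fold change -0.48, SE 0.175, limma unadjusted p = 0.0233, and -0.24 without KO4 and KO5). Among 8 arterial and 8 venous and capillary genes, 0 had an unadjusted limma p under 0.05, with median log2 fold changes of 0.23 and -0.01. The arterial median was 0.05 without KO4 and -0.01 without KO4 and KO5, and the venous and capillary median was then 0.07.

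Of 9 tested genes of high endothelial venules, 6 were above every WT library in both KO4 and KO5. These 6 include Glycam1, which reached the mean needed for testing only through KO4 and KO5. Another 1, St3gal4, a sialyltransferase that other cells also make, was below every WT library in both. Of all tested genes, 30.5% were above in KO4 and 24.3% in KO5, and 30.4% and 23.0% were below, each library taken alone. The share of all genes outside the WT range in both libraries is not given here. Glycam1, a secreted mucin ligand of L-selectin made by these venules, had 0 reads in 6 libraries, and 48 reads in KO4 and 105 in KO5 (44.2 and 78.8 normalized counts). The counts of 0 allow up to 2.48 to 3.65 normalized counts, depending on the library. Madcam1, the gut addressin, had 79.4 (WT3), 101 (WT5), 105 (WT7) and 107 (WT8) normalized counts, and 292 (KO4), 297 (KO5), 92.6 (KO7) and 159 (KO8). KO7 was inside the WT range (log2 fold change 0.95, SE 0.356, limma unadjusted p = 0.0264, and 0.31 without KO4 and KO5). St3gal4 had 16567 to 25264 in WT and 8698 (KO4), 13113 (KO5), 25616 (KO7) and 20229 (KO8). Of the 9 tested genes, 1 had an unadjusted limma p under 0.05 and was higher, 0 were lower, and the median log2 fold change was 0.44. The median was 0.23 without KO4 or without KO5, with 0 genes higher at that p, and 0.10 without both. Without KO5, and without both, 8 genes were tested because Glycam1 fell below the required mean, so those medians are over fewer genes. Glycam1 was detected only in KO4 and KO5, where Icam1, Vcam1, Selp, Sele and Ackr1 were also above the WT range. For Sele this rested on few reads, with 7 in KO4 and 19 in KO5, against 5 in WT8. Madcam1 was detected in every library. A link between the venule genes and the adhesion members was not tested.

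Markers of other cell types were set beside the members by list means, the mean log2(normalized count + 1) of tested genes minus the WT mean. The inducible adhesion and venular members had list means of 1.66 in KO4 and 1.11 in KO5, -0.01 in KO7 and 0.20 in KO8, with WT libraries from -0.56 to 0.52. The pan-endothelial members had 0.66, 0.39, 0.05 and 0.20, with WT from -0.11 to 0.07. For B cell and follicle markers the values were 5.81 (KO4), 5.02 (KO5), 0.10 (KO7) and 0.14 (KO8). These markers had set KO4 and KO5 apart above, so their high values there are not a separate result. Without KO4 and KO5, 6 of the 10 reached the mean needed for testing. All 10 were above the WT range in KO4 and KO5, where 30.5% and 24.3% of all tested genes were, each library taken alone. Cd79a, which encodes a signalling chain of the B cell antigen receptor, reached 2029 and 1240 normalized counts there and 121 to 196 elsewhere. The values for T cell markers were 2.04, 1.63, 0.28 and 0.08, and for lymphoid stroma markers 1.50, 1.29, -0.36 and -0.20. Leukocyte genes for ligands of the adhesion molecules, such as L-selectin and the integrin subunits, had 1.84, 1.34, -0.23 and -0.13. Their median log2 fold change was 0.65, 0.34 without KO4 and -0.10 without KO4 and KO5. NF-kB response genes had 1.61, 0.55, -0.18 and 0.03, with 0 higher and 1 lower (Relb) at an unadjusted limma p under 0.05 among 14. At that p 2.61% of all tested genes were higher and 1.77% lower. Mature enterocyte markers had -2.99, -1.94, 0.50 and 0.00. Hypoxia response genes had 0.45, 0.39, 0.19 and 0.04, with WT from -0.36 to 0.38. Of 12, 2 (Slc2a1 and Ddit4) were higher at an unadjusted limma p under 0.05 (2.61% of all tested genes). Without KO4 and KO5, 1 of 12 was (1.03% of the genes tested there). Macrophage markers had 0.76, 0.03, -0.21 and -0.12, with WT from -0.31 to 0.35. Of these 10 markers, 5 were above the WT range in both KO4 and KO5, and 0 were below it in both. Of all tested genes, 30.5% (KO4) and 24.3% (KO5) were above and 30.4% and 23.0% below, each library taken alone. The part of these cell types in the members' values was not tested.

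Connective tissue markers showed no shared excess in KO4 and KO5. Fibroblast markers had list means of 0.16 (KO4) and 0.18 (KO5), below that of WT8 (0.52), and smooth muscle markers had -0.35 and 0.48. The list mean of 7 epithelial markers common to all lineages lay between -0.14 and 0.10 in the 8 libraries. Single markers moved in opposite directions, with Krt18 above and Epcam and Vil1 below the WT range in both KO4 and KO5. Of 7 platelet and megakaryocyte markers, 2 were tested, Pf4 and Itga2b, and the others had at most 11 reads in any library. Junctional adhesion and transmigration genes that epithelium shares had a median log2 fold change of -0.06 over 11 tested genes (0.00 without KO5), with 0 at an unadjusted limma p under 0.05.

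**Figure D5:**
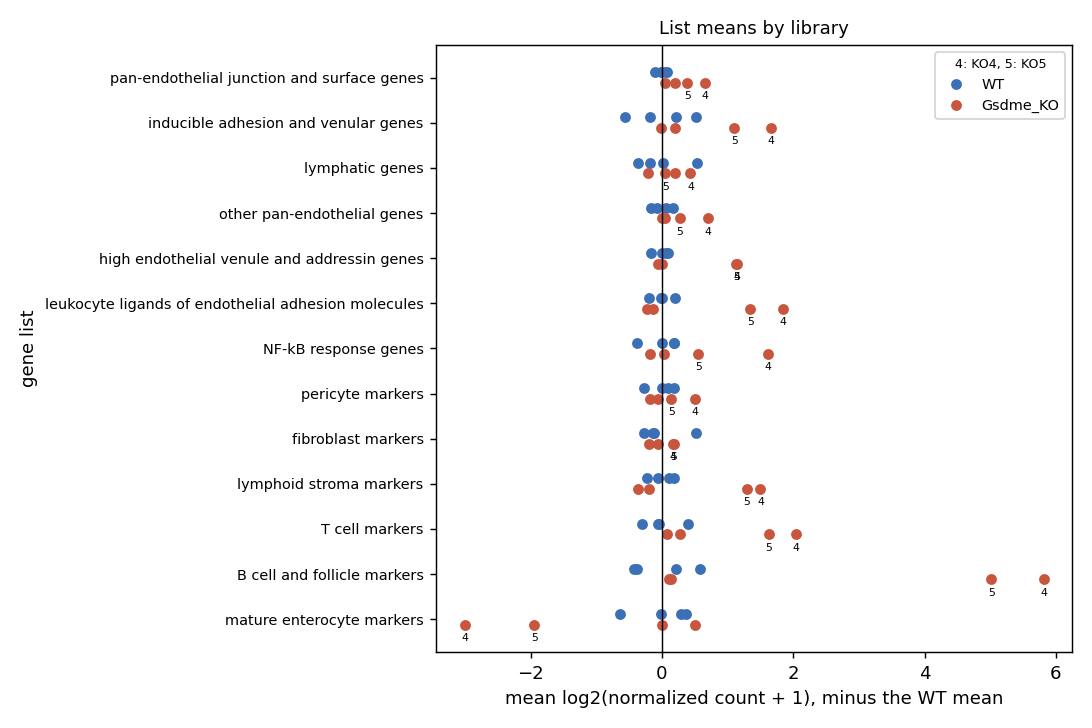
List means by library (horizontal axis, mean log2(normalized count + 1) of the tested genes minus the WT mean) for member groups and for marker lists of other cells, WT in blue and Gsdme_KO in red, with KO4 and KO5 marked 4 and 5. Adhesion members, venule genes and lymphocyte markers are high in KO4 and KO5 alone, and mature enterocyte markers are low there.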

How the data were processed

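Poly(A) RNA of ileum from irinotecan-treated mice was sequenced strand-specifically, per the labels. The deposited table holds 1 column per library and 1 row per gene, and its values are a normalized signal: read counts divided by a size factor, as the authors deposited them. HISAT2, SAMtools, featureCounts of Subread, DESeq2 and GRCm38 are named in the submitters' processing notes, and not given in the sources used here are their versions, the annotation release and how strand was used in counting. Values of every library were whole multiples of 1 read (100.0% of values, within 0.01 read), so reads could be recovered. Rows without a symbol (3754 of 55487) stayed in the fit. Column headers give genotype and an animal number that differs from the labels' numbers, so columns were tied to genotype only, and 0 columns of values were left unused. Libraries come from separate mice, and p-values measure the spread between them.

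log2(value + 1) was tested with limma 3.58.1 (limma-trend, R 4.3.3) over genes with a mean of at least 10, with Benjamini-Hochberg adjustment over all tested genes. This fold change understates changes of low genes. Alternatives were edgeR 4.0.16 and DESeq2 1.42.0 on recovered reads, other pseudocounts, filters and scalings, array weights and leaving out each library. The limma test was checked on simulated data. Gene positions and overlaps are from GENCODE M21, by gene ID, and 13 members overlap a gene on the other strand and 3 a gene on the same strand. Promoter windows are from RefSeq (GRCm38.p6), and 15 members had no entry. Members were given values in every library if their unadjusted limma p was under 0.05, if genotypes did not overlap, if they had the highest means of their role group, or if they had the widest ranges. Of the other lists, the genes of smallest p or highest mean were named; Dll4, Glycam1, Ccl21a, Pdgfrb and Higd1b were chosen after their values were seen. Of 223 symbols on the other lists 1 was not matched. The members and all lists were chosen with earlier results of these data known.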

Additional observations from a re-analysis of the deposited data

Results flagged for a closer look

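Among 92 combinations of a gene and a genotype and 56 of a gene list and a genotype, 7 had a library whose gap to the nearest of its group, as a share of the range, was above Dixon's 95% critical value for 4 libraries. Chance gives about 1 in 20 groups. In Gsdme_KO, Emcn was 135.9 normalized counts in KO5, against 111.3 to 114.5 in the other 3. Egfl7 was 376.1 in KO4, against 249.8 to 271.1, and Angpt2 was 103.2 in KO4, against 35.33 to 46.56. Apln was 66.83 in KO5, against 86.71 to 88.49. In WT, Plvap was 1205 in WT5, against 962.6 to 1000, and Nos3 was 109.6 in WT5, against 73.76 to 77.81. The list mean of the transcription factors was -0.107 in WT3, against 0.025 to 0.044 in the other WT libraries.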

How the results depend on the processing

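No member was called under any alternative run. No paired analysis was possible because the animal numbers in the column headers cannot be tied to the replicate numbers in the labels. Tmem88 and Sox17 kept a positive log2 fold change in every setting that tested them, and with a mean of at least 50 Sox17 was not tested and 1 member did not overlap. Members at an unadjusted p under 0.05 and higher in Gsdme_KO numbered 2 (without KO5; 1.15% of all genes) to 9 (without KO7; 6.01%), 3 without WT3 (1.57%), WT7 (1.44%) or KO4 (1.54%), and 2 without KO4 and KO5 (1.03%). Leaving out a library can only keep or raise the number of members without overlap. Members that did not overlap and were higher numbered 2 to 6 when 1 library was left out, 5 without WT5 (3.57% of all genes) and 6 without KO7 (4.02%). Those that were lower numbered 0 to 1, with 1 (Emcn) without KO5 (2.06%), without KO4 and KO5 (5.92%), or with quantile normalization (1.57%). The members' median log2 fold change ran from 0.145 (without KO4) to 0.354 (without KO7) when 1 library was left out, and was 0.09 without KO4 and KO5. Without KO4 and KO5 the sign changed for Cd34 (-0.003), Mmrn2 (-0.010), Eng (-0.018), Tek (-0.061), Tie1 (-0.037), Pdpn (-0.063), Icam1 (-0.222), Vegfa (0.090) and Mmrn1 (0.008). List medians there were -0.008 for arterial genes (0.051 to 0.317 with 1 library left out), 0.116 for other lymphatic genes, -0.105 for leukocyte ligands and -0.091 for B cell markers, of which fewer were tested. Quantile normalization gave -0.021 for Tek, -0.093 for Vegfc and a median of 0.081 for epithelial markers, and array weights gave 0.119 for Mmrn1. With 1 library left out the log2 fold change spanned -0.083 to 0.337 for Apln, -0.141 to 0.145 for Mmrn1, -0.030 to 0.487 for Pdpn, -0.040 to 0.305 for Prox1, -0.038 to 0.112 for Rgs5, -0.090 to 0.177 for Tek and -0.073 to 0.131 for Vegfc. The log2 difference of Gsdme was -2.37 without KO4 and KO5 (exact permutation p = 0.0667, the smallest that 4 against 2 libraries allow). The cause of these shifts was not tested. Depth limits Sele, with at most 19 reads in a library.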
